A study of Homo sapiens with 2 samples.

Results

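CHD4 occupancy was examined over 7 genes of microtubule-associated proteins, *MAP2*, *MAP1A*, *MAP1B*, *MAP4*, *MAP6*, *MAP7* and *MAPT*, in 501Mel cells, an established human melanoma line. The genes were listed by name, with earlier results of these data known. A peak belonged to a gene when it overlapped the GENCODE gene record or the 2000 bp before its start by at least 1 bp. This gave 53 CHD4 peaks in the 7 windows, of 60126 in the deposited list, and the 7 genes stand among 20136 protein-coding genes. Chromatin of untreated 501Mel cells, fixed with 0.4% paraformaldehyde, was sequenced after ChIP for CHD4 (1 library) and without ChIP as input (1 library). There are no replicates, so no difference was tested, and the intervals given here cover counting error only. The list carries no read counts, so the depth behind each peak is not known from it. Gene expression was not analysed here.

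Microtubule-associated proteins bind along the microtubule wall and set how stable it is, how it is bundled and which motors can walk on it. MAP2 and tau, the product of *MAPT*, share a related repeat domain for microtubule binding with MAP4, and are best known from the dendrites and axons of neurons, whereas MAP4 is the widely expressed member outside the nervous system. MAP1A and MAP1B are large proteins cut into heavy and light chains, MAP6 protects microtubules against cold, and MAP7 recruits the motor kinesin-1. Melanocytes come from the neural crest and form dendrites, and *MAP2* is known to be expressed in some melanomas. CHD4 is the ATPase of the NuRD complex, which slides nucleosomes and carries histone deacetylases.

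All positions are on hg19. The sequences below are parts of CHD4 peaks, chosen as the strongest peaks of *MAP2*, *MAP4* and *MAPT* and the single peak of *MAP1A*. Each is the plus strand of the GRCh37 reference, read 5′ to 3′, and touches no exon of any transcript in GENCODE. Capitals mark matches on either strand to the motifs searched, which were the AP-1 motif TGANTCA, the E-box CACGTG, part of the M-box bound by MITF written as CATGTG, the SOX core ACAATG, the GC box GGGCGG and a CTCF consensus.
MAP2 strongest peak, chr2:210543759-210544058, intron 6: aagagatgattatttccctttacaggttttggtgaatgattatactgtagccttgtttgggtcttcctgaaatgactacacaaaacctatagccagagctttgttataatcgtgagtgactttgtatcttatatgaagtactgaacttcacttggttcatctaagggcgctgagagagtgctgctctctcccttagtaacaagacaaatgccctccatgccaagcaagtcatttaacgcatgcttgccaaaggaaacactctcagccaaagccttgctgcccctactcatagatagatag
MAP1A peak, chr15:43802241-43802540, before the gene start: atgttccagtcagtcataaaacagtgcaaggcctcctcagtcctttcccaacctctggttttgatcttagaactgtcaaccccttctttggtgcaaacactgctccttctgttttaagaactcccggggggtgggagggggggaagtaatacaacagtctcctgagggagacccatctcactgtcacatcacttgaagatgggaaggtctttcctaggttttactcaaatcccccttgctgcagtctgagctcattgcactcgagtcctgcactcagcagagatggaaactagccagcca
MAP4 strongest peak, chr3:48066119-48066302, whole peak: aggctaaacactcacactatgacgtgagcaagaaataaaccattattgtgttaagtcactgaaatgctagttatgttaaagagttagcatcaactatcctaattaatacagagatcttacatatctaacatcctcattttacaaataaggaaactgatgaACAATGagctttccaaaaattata
MAPT strongest peak, chr17:44024064-44024363, intron 1: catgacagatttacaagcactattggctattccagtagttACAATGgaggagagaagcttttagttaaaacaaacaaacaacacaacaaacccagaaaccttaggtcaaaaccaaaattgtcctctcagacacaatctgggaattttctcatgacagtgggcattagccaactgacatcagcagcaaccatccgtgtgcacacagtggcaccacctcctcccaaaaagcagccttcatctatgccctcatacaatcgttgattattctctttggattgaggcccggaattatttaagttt
The printed bases of the strongest *MAP2* peak and of the *MAP1A* peak hold no match to any of the motifs, which says only that these letters are not in this window.

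*MAP2* (ENSG00000078018.22, chromosome 2 from 210288771 to 210598871, plus strand) carried 26 CHD4 peaks (exact Poisson 95% interval 17 to 38.1), more than the other 6 genes had singly. The peaks were many and long but low in fold enrichment, which was not adjusted for peak length. They covered 40177 bp, or 12.9% of the 312101-bp window, where genes of like length had a median of 1.22%. Peaks per kb of window came to 0.0833 (0.0544 to 0.122), against a median of 0.0159 over 672 protein-coding genes whose window length was within 25% of that of *MAP2*. Of those genes, 94.3% had fewer peaks per kb (Wilson 95% interval 92.3% to 95.9%), and 38 had at least as many. By the share of the window covered, 98.7% had less. Over all lengths, 19.0% of protein-coding genes had at least as many peaks per kb as *MAP2*.

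Over the 26 *MAP2* peaks the enrichment of ChIP reads over background, given as a fold, ranged from 2.28 to 3.63 with a median of 2.72. The median of all 60123 peaks on chromosomes 1 to 22, X and Y was 3.09, and 22 of the 26 *MAP2* peaks did not exceed it. The −log10 q ranged from 1.13 to 4.33. It was at least 2 for 12 of the 26 peaks, or 46.2%, close to the 48.5% of the whole list. No *MAP2* peak reached 5, as 2.23% of all peaks did. The strongest *MAP2* peak, of 775 bp in intron 6, was enriched 3.63-fold with a −log10 q of 4.33. By fold enrichment it stood above 85.0% of all peaks, and by −log10 q above 95.8%. The length of the *MAP2* peaks had a median of 840.0 bp, from 152 to 5668 bp, and 9 of the 26 (34.6%) were over 2000 bp, against 10.3% of all peaks.

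The *MAP2* peaks were spread over the gene, from the start to intron 10. In 5 equal stretches of the window there were 7, 3, 5, 4 and 7 peaks, and the first and last of them spanned 88.6% of the window. The centres of 25 of the 26 peaks lay in introns of the canonical transcript MAP2-218, which has 16 exons. Intron 1, of 83315 bp, held 6 of them and intron 2, of 72394 bp, another 6. The longest peak, of 5668 bp, lay in intron 1 with its centre 17.5 kb after the start, with a fold enrichment of 3.01. The 2 peaks of highest fold enrichment lay next to each other, 255.1 and 257.5 kb after the start. The second of them had a fold enrichment of 3.49 and covered 78 bp of coding sequence in exon 7. Over the canonical transcripts of the 7 genes, no other coding bases lay under a peak. At the first start of *MAP2* the peak was 1160 bp long, and its fold enrichment was 2.57, with 3.38% of the list lower. Its −log10 q was 1.53, with 24.8% of the list lower. This peak had a GC content of 63.8%, whereas the median of the *MAP2* peaks was 34.9% and the whole window had 36.0%. A pair of further *MAP2* peaks lay within 1000 bp of an internal start, 261.4 and 273.1 kb into the gene, with fold enrichments of 2.53 and 3.41.

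**Figure D1:**
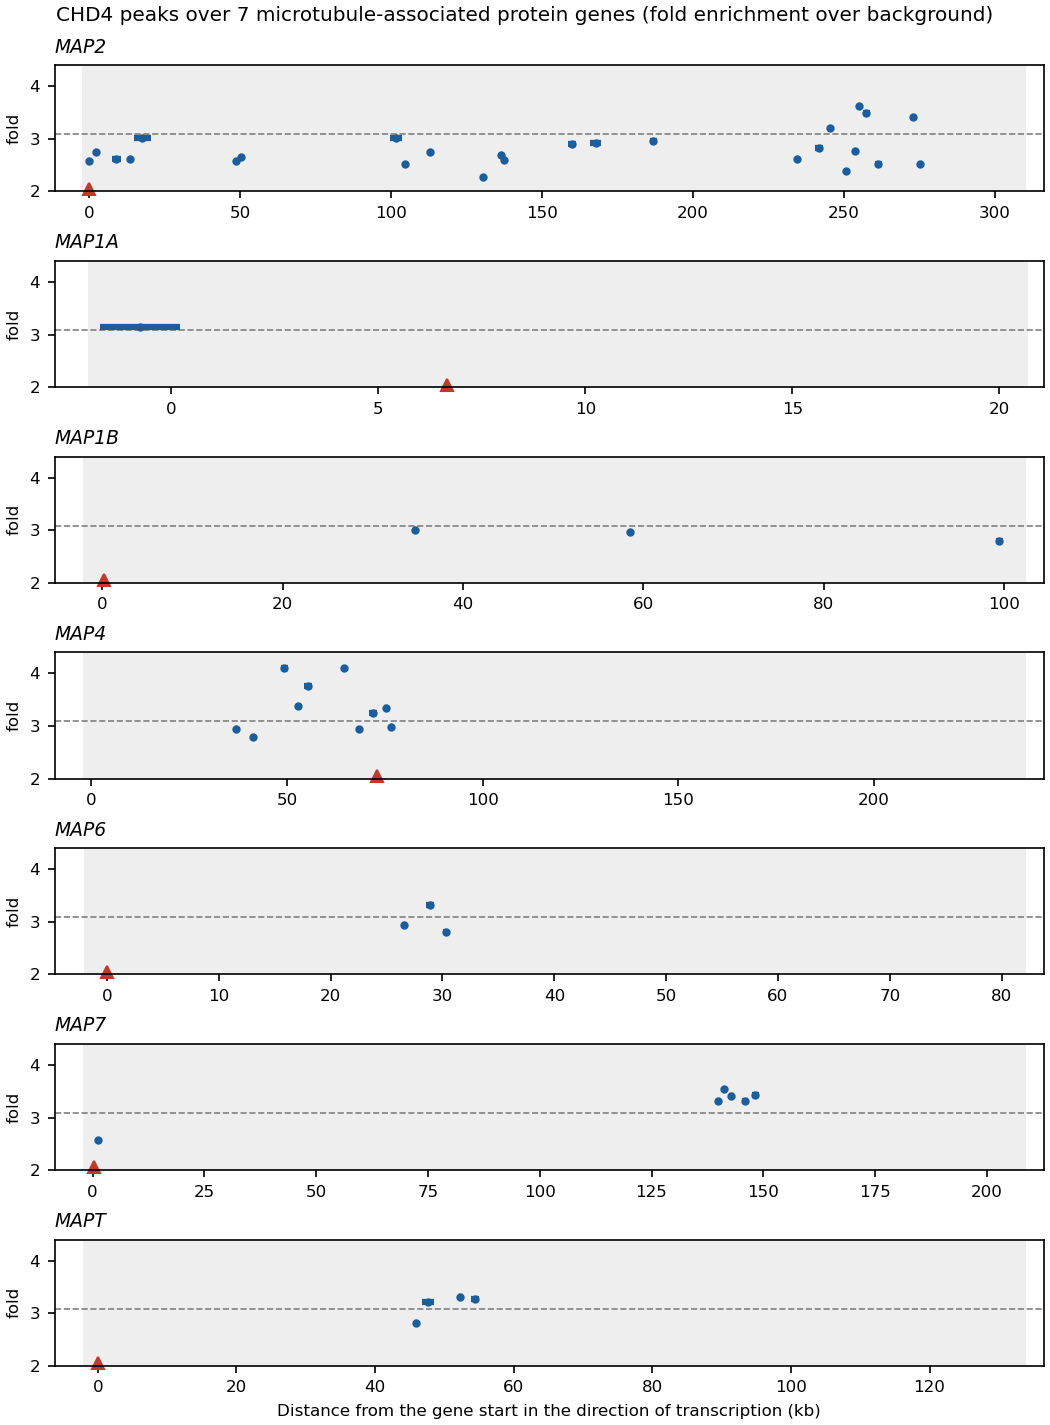
Fold enrichment of each CHD4 peak (vertical axis) against its distance from the gene start in kb (horizontal axis, a different scale for each gene), with the window in grey. Points mark peak centres, thick bars the peak length, triangles the start of the canonical transcript and dashed lines the median of all peaks, 3.09. The 26 *MAP2* peaks run along the gene and mostly lie below the line, and those of *MAP4*, *MAP6* and *MAPT* gather in one stretch.

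The background level estimated under the *MAP2* peaks was high. The list does not give this level, so it was solved for each peak from the fold and the p of the peak caller, taking the p as Poisson and adding 1 to both sides of the fold, and is in extended fragments over a position. Whether the input library served as the control is not given in the sources used here, so the level cannot be read as that of the input. The estimate was 4.85 in the median of the *MAP2* peaks, from 4.39 to 5.85. Over the 27 peaks of the other 6 genes it was 2.69, from 2.48 to 3.48, so the ranges did not overlap, and over all peaks it was 2.88, with 8.93% above 4. Peaks within 1000000 bp on either side of *MAP2* had a median of 4.68, and with the *MAP2* peaks included the local level was higher than around 99.6% of protein-coding genes. Along chromosome 2 in bins of 1 Mb the median was at least 4 from 210 to 212 Mb, 2 bins that hold and follow *MAP2*, and over the peaks outside them it was 3.07. Of 234 bins with a peak, 3 others on the chromosome also reached 4, at 92, 100 and 145 Mb, with medians of 9.34 from 1 peak, 4.12 from 50 peaks and 4.72 from 77 peaks. Peaks in the flanks of *MAP2* shared the level but were fewer, with 15.5 per Mb against 83.3 per Mb in the window, and inside the 2 bins 17.8 per Mb outside *MAP2*. The low fold enrichment was shared by the neighbourhood, with a median of 2.76 for the peaks of the 2 bins outside *MAP2*, 2.72 in *MAP2* and 3.02 on the rest of the chromosome. As the level is solved from the fold and the p of each peak, the low fold and the high level are not independent observations. Of the 8 protein-coding genes wholly within the 2 bins, *UNC80* came next with 11 peaks, or 0.0479 per kb. Among 58 genes of like length whose local level was within 25% of that of *MAP2*, 89.7% had fewer peaks per kb, a setting chosen after the level was seen. The part of the background level in the count of *MAP2* peaks was not tested beyond this.

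**Figure D2:**
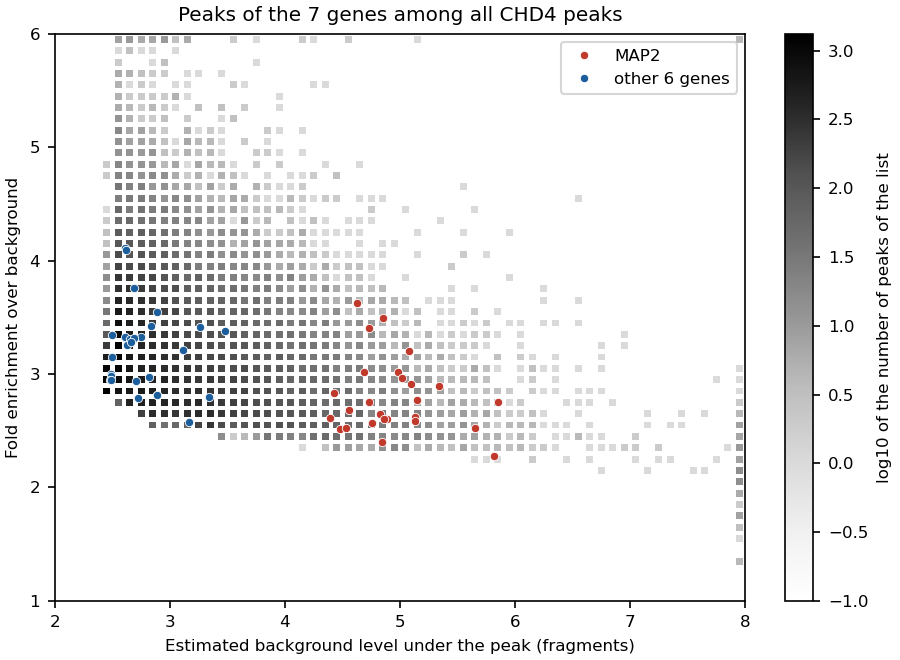
Fold enrichment (vertical axis) against the estimated background level in fragments (horizontal axis) for the 26 *MAP2* peaks (red) and the 27 peaks of the other 6 genes (blue), over all peaks of the list counted in squares of 0.1 by 0.1 (grey, log10 scale). Peaks beyond the axes are drawn in the squares at the edge. The level is solved from the fold and the p of each peak, so the axes are not independent. *MAP2* peaks lie between 4.39 and 5.85 on the horizontal axis, to the right of all peaks of the other genes.

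**Figure D3:**
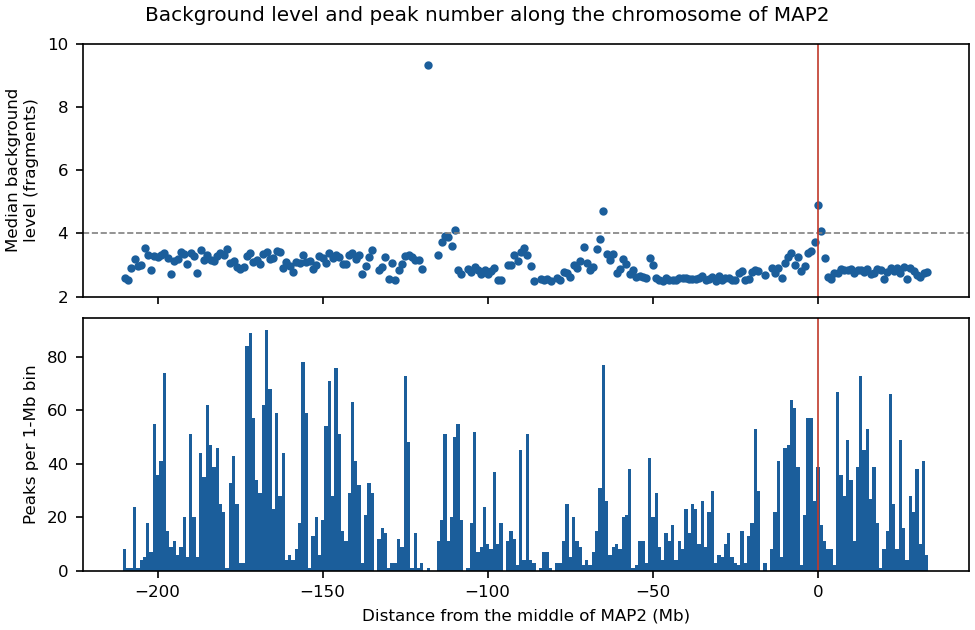
Median estimated background level of the peaks (upper panel, dashed line at 4) and number of CHD4 peaks (lower panel, bars) in bins of 1 Mb along chromosome 2, against the distance from the middle of *MAP2* in Mb (red line). The 2 bins that hold and follow *MAP2* are above 4, as are 3 others far from it, and the median over peaks outside the 2 bins was 3.07.

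The 3 protein-coding genes of like length nearest to *MAP2* in peaks per kb were *MAST2* (0.0836, 21 peaks), *TMC1* (0.0847, 27 peaks) and *RAPGEF2* (0.0849, 22 peaks). The likeness was measured as the difference in peaks per kb, which was at most 0.00158 for these genes. Their highest fold enrichments were 4.09, 3.44 and 3.78, against 3.63 in *MAP2*.

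The other 6 genes had from 1 to 10 peaks. In peaks per kb of window the order after *MAP2* was *MAP1A* (0.0441), *MAP4* (0.0416), *MAP6* (0.0357), *MAPT* (0.0295), *MAP1B* (0.0288) and *MAP7* (0.0285). The exact Poisson intervals of these genes overlap one another and that of *MAP2*. Overlap does not show that the rates are alike, and no pair of genes was tested, so this order is not settled. At least 1 peak was found in all 7 genes, where 58.3% of protein-coding genes had one. Among genes of like length the share ran from 57.9% for *MAP1A* to 82.9% for *MAP7*. All 7 genes had more peaks per kb than the median of genes of like length, where 45.6% of protein-coding genes did. Outside *MAP2* and *MAP4* this was by a small margin, with 54.4% of like genes below *MAP1A*, 61.0% below *MAP1B*, 62.2% below *MAP7*, 64.5% below *MAPT* and 65.7% below *MAP6*. With only peaks of −log10 q of at least 2, *MAP1A* and *MAP1B* had no peak left and 5 of the 7 genes stayed above the median. Of these, *MAP6* did so narrowly, with 1 peak left and 52.7% of like genes below it.

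**Figure D4:**
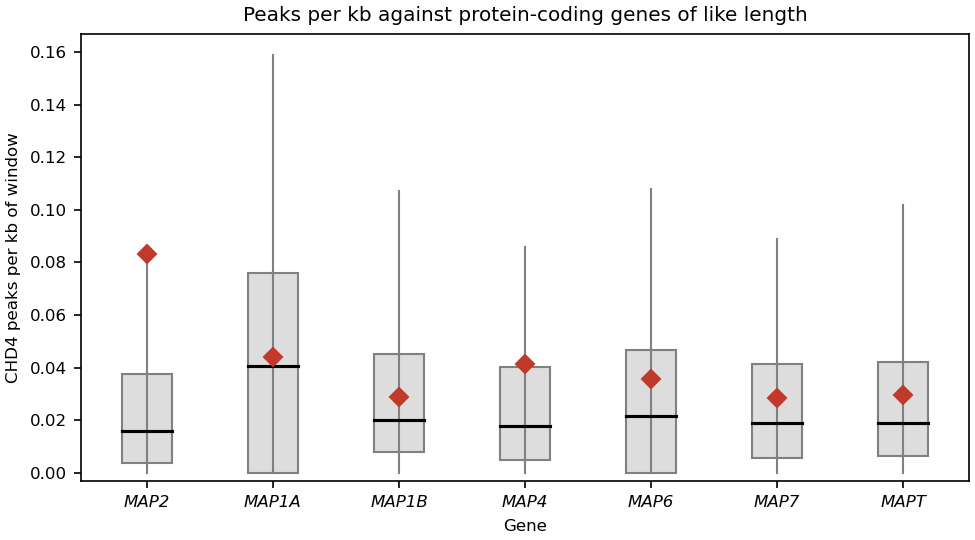
CHD4 peaks per kb of window for each of the 7 genes (red diamonds) over protein-coding genes whose window length was within 25% of that of the gene (line, median; box, quartiles; whisker, 5th to 95th percentile). *MAP2*, with 0.0833, lies near the end of its whisker at 0.0853, and the other genes lie above the median and near or inside the box.

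*MAP4* (ENSG00000047849.22, chromosome 3 from 47892180 to 48130762, minus strand) had 10 peaks and the highest fold enrichments of the set. The strongest, from 48066119 to 48066302, was only 184 bp long enriched 4.11-fold with a −log10 q of 3.92, and 95.8% of all peaks were weaker. A second, of 1854 bp, was enriched 4.10-fold, lay 49.3 kb after the first start of the gene and overlapped the pseudogene record *RPS27P30*. Fold enrichments over the 10 peaks ranged from 2.80 to 4.11 with a median of 3.30, and 6 exceeded the median of the list. All 10 peaks lay between 37 and 76.6 kb after the first start, and the rest of the gene had none. The canonical transcript MAP4-217 starts inside this stretch, 72856 bp after the first start, so the centres of 8 of the 10 peaks lay before the canonical transcript and in the part used only by transcripts with earlier starts. A peak of 1894 bp with a fold enrichment of 3.25 covered the canonical start and 83 bp of exon 1. The 500 bp on either side of that start had a GC content of 40.0% and a ratio of observed to expected CpG of 0.10, whereas the median canonical start of protein-coding genes had 61.3% and 0.73. The first start of *MAP4* had no peak within 1000 bp.

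*MAPT* (ENSG00000186868.18, chromosome 17 from 43971893 to 44105700, plus strand) had 4 peaks, all in intron 1. Their fold enrichments, in order along the gene, were 2.82, 3.21, 3.31 and 3.28, and 3 of them had a −log10 q of at least 2. They lay 45.8 to 54.4 kb after the start, within 9338 bp of an intron of 67634 bp. None was within 1000 bp of any of the 21 annotated starts, and the canonical start had a GC content of 72.5% and a CpG ratio of 0.90.

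*MAP6* (ENSG00000171533.12, chromosome 11 from 75297963 to 75380083, minus strand) had 3 peaks within 4083 bp of intron 1, with fold enrichments of 2.94, 3.33 and 2.81 from the start onwards. Their centres lay 26.6 to 30.3 kb after the start. The first and the third also overlapped the records of ENSG00000255280 and ENSG00000254630, so these peaks cannot be given to *MAP6* alone.

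*MAP7* (ENSG00000135525.19, chromosome 6 from 136663419 to 136871957, minus strand) had 6 peaks, of which 5 lay within 9457 bp of intron 3 with fold enrichments from 3.31 to 3.55. All 5 had a −log10 q of at least 2. The sixth, of 268 bp, lay in intron 1 within 1000 bp of an annotated start and was the weakest, enriched 2.58-fold with a −log10 q of 1.10. It had a GC content of 60.8%, as against 39.3% for the window.

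*MAP1B* (ENSG00000131711.15, chromosome 5 from 71403061 to 71505392, plus strand) had 3 weak peaks, with fold enrichments of 3.0, 2.97 and 2.79 and −log10 q values of 1.57, 1.68 and 1.33. The first pair lay in intron 2. The third, of 750 bp, lay wholly in exon 7, the last exon of the canonical transcript, and covered none of its coding sequence. Exon 5, which at 6502 bp is the longest exon, had no peak.

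*MAP1A* (ENSG00000166963.13, chromosome 15 from 43803156 to 43823818, plus strand) had 1 peak, of 1936 bp, enriched 3.15-fold with a −log10 q of 1.85. It lay across the first start of the gene, and 204 bp of it were inside the record. *TP53BP1*, a gene of the response to DNA breaks, starts 229 bp before *MAP1A* on the other strand, and 1503 bp of the peak lay inside *TP53BP1*. All printed bases of the peak lie inside the *TP53BP1* record. The peak can thus be given to either gene. The canonical transcript of *MAP1A* starts 6650 bp further on and had no peak within 1000 bp.

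A peak within 1000 bp of an annotated start was found in 4 of the 7 genes, *MAP2*, *MAP1A*, *MAP4* and *MAP7*, where 42.5% of protein-coding genes had one (Wilson 95% interval 41.8% to 43.1%). For 4 of 7 the interval runs from 25% to 84.2%, so a difference was not detectable. With only peaks of −log10 q of at least 2 the genes left were *MAP2* and *MAP4*, and with the canonical start alone *MAP1A* dropped out. *MAP1B*, *MAP6* and *MAPT* had no listed peak at a start. GC content at their canonical starts was 66.2%, 61.8% and 72.5%, and the median canonical start of protein-coding genes had 61.3%. A link between GC content and a peak at a start was not tested.

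How tightly the peaks of a gene gathered was examined after the positions had been seen. The stretch from the first to the last peak was 16.7% of the window in *MAP4*, 4.85% in *MAP6* and 6.88% in *MAPT*. Genes of like length with a like number of peaks had medians of 79.3%, 56.4% and 55.8%. A stretch as short or shorter was found in 0 of 150 such genes for *MAP4*, which allows a share of up to 2.00%, in 6 of 413 (1.45%) for *MAP6* and in 7 of 436 (1.61%) for *MAPT*. For *MAP2* it was 43.4% of 53 genes, for *MAP1B* 60.3% of 395 and for *MAP7* 53.8% of 299. A like number was within 25% of the gene's own, rounded to whole peaks, and at least 3. With peaks within 1000 bp merged, *MAP4* had 9 peaks, *MAPT* 3 and *MAP6* 2, which is below that minimum. The stretches were not compared again after merging.

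Peak density was also set against the neighbourhood of each gene. Within 1000000 bp on either side there were 15.5 peaks per Mb around *MAP2*, 14.0 around *MAP1A*, 28 around *MAP1B*, 27.5 around *MAP4*, 37.5 around *MAP6*, 31.0 around *MAP7* and 35.5 around *MAPT*. The window was 5.37 times as dense as these flanks for *MAP2*, 3.15 times for *MAP1A*, from its single peak, and 1.51 times for *MAP4*. For *MAP1B* the ratio was 1.03, and for *MAP6*, *MAP7* and *MAPT* it was 0.951, 0.919 and 0.830.

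Of the 53 peaks, 42 had their centre in an intron of the canonical transcript, 1 in an exon and 10 outside it. The same count was not made over all peaks, so it is not read as a trait of these genes. In GC content 35 of the 53 were below their own window, a count also not made over all peaks. The median of the 53 was 36.9%, against 43.8% for all peaks. The 26 *MAP2* peaks lay at 34.9% and the 27 peaks of the other 6 genes at 42%. Within 250 bp of the centre, AP-1 (TGANTCA) matches were found in 4 of 53 peaks, or 7.55% (Wilson 95% interval 2.97% to 17.9%), against 18.1% of all peaks. CATGTG was found in 18.9% (10.6% to 31.4%) against 33.7%, CACGTG in 5.66% against 7.97%, GGGCGG in 5.66% against 13.4%, and ACAATG in 35.8% (24.3% to 49.3%) against 28%. The CTCF consensus was found in none, against 1.49%. Counted anywhere in the peak, the shares were 28.3% against 26.6% for AP-1, 39.6% (27.6% to 53.1%) against 43.5% for CATGTG, 9.43% against 12.6% for CACGTG, 11.3% against 17.7% for GGGCGG and 56.6% (43.3% to 69.0%) against 37.2% for ACAATG. The intervals for AP-1 and CATGTG thus lay below the share of all peaks near the centre only, and that for ACAATG lay above it in the whole peak only. The part of GC content and peak length in these shares was not tested, and the 53 peaks share 7 genes.

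Other genes of the microtubule system were taken from lists, which were chosen with earlier results of these data known. Of 47 such genes, 33 had a peak in the window, or 70.2% (56.0% to 81.3%), an interval that includes the 58.3% of all protein-coding genes. There were 27 above the median of genes of like length (57.4%, against 45.6% of all protein-coding genes), and none had a peak with a fold enrichment of 5 or more, as 213 protein-coding genes did. Single lists hold 8 to 13 genes, and the Wilson interval of the share with a peak included 58.3% in each of the 5. A peak within 1000 bp of an annotated start was found in 28 of the 47 genes, or 59.6% (45.3% to 72.4%). Over all protein-coding genes it was 42.5%, below this interval. By single list the interval lay above 42.5% only for plus-end tracking genes, with 7 of 8 (52.9% to 97.8%). No such difference was tested. Relatives of the MAP genes had a peak in 6 of 9 cases, with *MAP1LC3B*, an autophagy protein named as a MAP1 light chain, at 0.0876 peaks per kb and *MAP6D1* at 0.0857. Plus-end tracking genes had one in 7 of 8. *CLASP1*, which anchors growing microtubule ends and whose window of 313701 bp is nearly as long as that of *MAP2*, had 21 peaks, or 0.0669 per kb, above 91.1% of like genes, and *CLIP1* had 6 peaks, or 0.0392 per kb. Minus-end binding and severing genes had a peak in 6 of 9, with *CAMSAP2* at 0.0565 per kb and *KATNA1*, a katanin subunit, at 0.0535. In the doublecortin and stathmin list it was 4 of 8. *STMN1*, a tubulin-sequestering protein, had 4 peaks, or 0.161 per kb, and *STMN3* had 0.0501. Tubulins had a peak in 10 of 13, with *TUBB* at 0.297 and *TUBB2B* at 0.288 per kb, each from 3 peaks. Only reads with a single best position were kept, so near-identical stretches of tubulin genes can have lost reads.

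**Figure D5:**
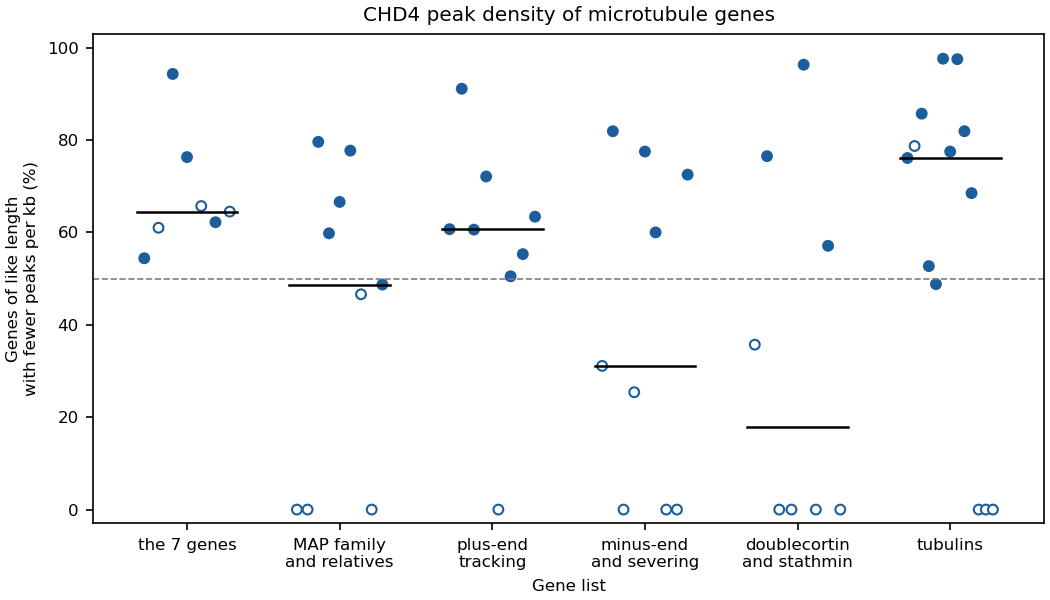
Share of protein-coding genes of like length with fewer CHD4 peaks per kb, in percent (vertical axis), for each gene of the 6 lists, with list medians as black lines. Filled points had a peak within 1000 bp of an annotated start and open points did not. The medians run from 17.9% for doublecortins and stathmins to 76.1% for tubulins, with the 7 genes at 64.5%.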

How the data were processed

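Chromatin from 501Mel cells gave 1 CHD4 ChIP library and 1 input library. Per the labels, bcl2fastq 2.17.1.14, Bowtie 1.0.0 and MACS2 2.1.1.20160309 were used with hg19. The authors kept uniquely aligned reads, extended them to 151 bp and called broad regions. The deposited list gives for each peak a score (10 times the −log10 q), a fold enrichment, which is a ratio of the ChIP over the background, and the −log10 p and −log10 q. Each is a single value for the whole peak, whatever its length. Fold enrichments were not adjusted for length, apart from a ranking of the strongest *MAP2* peak among peaks of like length. Nothing was pooled, and no table of counts was used, so depth per peak is unknown.

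Positions were counted from 1 and joined to GENCODE release 44 on GRCh37, whose chromosome names and lengths fit hg19. A window was the gene record and the 2000 bp before its start. Genes of like length were all protein-coding genes within 25% of the window length, with no gene drawn at random. The members and lists were chosen with earlier results of these data known. Genes named were the 7 members, the 2 densest of each list, any reaching 5-fold enrichment (none did), the 3 nearest to *MAP2*, and genes sharing a peak; *UNC80* was named after its values were seen. Poisson, Wilson and floor limits are at 95% and cover counting error only. Alternatives covered thresholds, merging, windows, matching and starts. The counting, ranking and background steps were run on simulated data. The simulated background levels followed the same formula that the estimate solves, so this checked the solving only. Whether the formula holds for the deposited peaks, long ones among them, was not tested. The tools were samtools 1.23.1, pysam 0.24.0 and Python 3.11.15 with scipy 1.17.1, pandas 2.3.3, matplotlib 3.10.9 and numpy 2.4.6. The sequence at the *MAP2* start is not reported here.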

Additional observations from a re-analysis of the deposited data

How the results depend on the processing

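No paired analysis was possible because the CHD4 ChIP and the input were each sequenced once, so that no replicate could be left out and nothing was tested. The 53 peaks in the 7 windows were 27 when the −log10 q had to reach 2 and 0 when it had to reach 5. At that stricter limit the genes above the median of like genes, the genes with a peak at a start and the percentile of *MAP2* were 0 by construction, since no peak was left. At the limit of 2, a peak at a start was left in 2 genes where 4 had one. The percentile of *MAP2* among genes of like length was 94.3%, and became 98.7% by the share of the window covered, 97.4% among genes also of like GC content and 89.7% among genes also of like background level, the last 2 being settings added after seeing the data. Under the other alternatives it stayed between 93.8% and 95%. The strongest *MAP2* peak stood above 85.0% of peaks, above 95.8% by −log10 q and above 89.0% among peaks of like length. AP-1 matches within 250 bp of the centre were found in 4 member peaks, and anywhere in the peak in 15. With peaks within 1000 bp merged, 6 of the 7 genes were above the median, *MAP7* being the exception, and with like GC content 6, *MAP1A* being the exception. The cause of these changes was not tested except where stated. Without read counts, differences between single peaks cannot be weighed against their depth.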
